A study of Rattus norvegicus with 145 samples.

Results

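The tubulin genes considered here are Tuba1a, Tuba1b, Tuba1c, Tuba4a, Tubb2a, Tubb2b, Tubb4b, Tubb5, Tubb6 and Tubg1, 10 of the 17337 genes listed in the liver RNA-Seq count tables of rats gavaged with acetamide. They were taken by symbol, and all 10 were found in each of the 5 tables. Their normalised read counts, given as CPM (counts scaled to the size of the library), were followed in every rat across the doses, given in mg/kg/day (mkd).

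Experiment A used male Hsd:WI Wistar rats aged 9 to 10 weeks that received water vehicle or 30, 100, 300 or 1000 mkd acetamide for 7 days and were sampled on day 8. Experiment B used male and female Crl:WI Wistar rats aged 8 to 10 weeks that received water vehicle or 300, 500, 750, 1000 or 1500 mkd for 7 or 28 days and were sampled on day 8 or day 29, 24 h after the last dose, in randomized order. Collection followed an overnight fast in Experiment A and was described as the same for Experiment B. Each group held 5 rats, which gave 25 rats in Experiment A and 30 in each of the 4 tables of Experiment B, and each library was made from bulk RNA of the left liver lobe of 1 rat. No rat carried a transgene, and all groups shared the daily gavage with water. In bulk tissue, more cells of a type and more RNA per cell cannot be told apart.

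Microtubules are hollow polymers of alpha- and beta-tubulin dimers. They carry vesicle traffic and secretion in the non-dividing hepatocyte and are rebuilt into the mitotic spindle when a cell divides. Each tubulin is encoded by several genes. Of the genes here, Tuba1a, Tuba1b, Tuba1c and Tuba4a encode alpha-tubulins, Tubb2a, Tubb2b, Tubb4b, Tubb5 and Tubb6 encode beta-tubulins, and Tubg1 encodes gamma-tubulin, which is not part of the dimer and nucleates microtubules at the centrosome. Cells also adjust the stability of tubulin mRNA to the amount of free dimer.

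The promoters of the members are given first, as sequence context for the genes described. All 10 had an entry among the RefSeq promoters of rat build GRCr8. In the 250 bases before the annotated start, CCAAT, the box that the factor NF-Y recognizes, was found in 8 of 10 members on either strand, against 34% of 33469 promoters. GGGCGG, the core of a GC box, was also found in 8 of 10, against 30.5%. CACGTG, an E-box of the kind bound by clock and Myc family factors, was found in 1 member, Tubb5, against 5.59%. A match is a description of the letters and not a site in use. Tubg1, which was not called at any dose, had CCAAT, and Tubb2a, which was called in females on day 29, did not. Whether the motif goes with the calls was not tested, and with it in 8 of 10 members there was little to compare. The stretches given next are those of Tubb6, Tubb5 and Tubb4b, which rose with dose, and of Tuba4a and Tubb2a, which had no CCAAT in this window. Capitals mark CCAAT or its complement ATTGG and GGGCGG or its complement CCGCCC, and no pair of marked motifs overlapped.
Tubb6: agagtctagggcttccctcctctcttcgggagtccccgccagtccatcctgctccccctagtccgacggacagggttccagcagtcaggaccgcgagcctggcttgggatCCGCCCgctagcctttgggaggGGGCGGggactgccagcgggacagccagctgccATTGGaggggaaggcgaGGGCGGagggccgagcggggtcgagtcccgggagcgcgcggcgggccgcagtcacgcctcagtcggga
Tubb5: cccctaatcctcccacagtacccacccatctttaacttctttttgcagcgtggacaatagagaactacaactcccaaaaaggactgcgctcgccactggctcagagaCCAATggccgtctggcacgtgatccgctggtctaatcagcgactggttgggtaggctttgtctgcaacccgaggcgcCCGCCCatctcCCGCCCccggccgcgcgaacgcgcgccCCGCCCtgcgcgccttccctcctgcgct
Tubb4b: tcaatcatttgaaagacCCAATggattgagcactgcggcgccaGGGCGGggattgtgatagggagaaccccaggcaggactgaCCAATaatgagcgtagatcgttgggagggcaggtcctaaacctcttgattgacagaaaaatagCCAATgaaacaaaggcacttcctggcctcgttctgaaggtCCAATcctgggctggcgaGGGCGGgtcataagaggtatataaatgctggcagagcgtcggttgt
Tuba4a: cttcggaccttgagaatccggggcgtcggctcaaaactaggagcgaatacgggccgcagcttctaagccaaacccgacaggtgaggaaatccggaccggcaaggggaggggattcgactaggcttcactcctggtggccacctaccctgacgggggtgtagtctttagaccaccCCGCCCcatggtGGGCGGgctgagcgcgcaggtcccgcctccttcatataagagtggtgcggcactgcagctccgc
Tubb2a: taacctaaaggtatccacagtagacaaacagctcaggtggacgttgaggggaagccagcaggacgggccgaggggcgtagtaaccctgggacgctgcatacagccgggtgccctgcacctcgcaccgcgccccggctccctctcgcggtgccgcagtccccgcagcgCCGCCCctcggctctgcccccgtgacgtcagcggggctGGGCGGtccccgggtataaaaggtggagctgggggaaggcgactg
Tubb6 is read from chr18:63213037-63213286 on the plus strand, Tubb5 from chr20:2917327-2917576 on the plus strand, Tubb4b from chr3:28438456-28438705 on the minus strand, Tuba4a from chr9:84162585-84162834 on the minus strand and Tubb2a from chr17:31001936-31002185 on the plus strand. The Tubb4b stretch held 4 copies of CCAAT.

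Gene counts summed to between 15449716 and 39986531 per rat, and 11279 to 11497 genes passed the filter on low counts in a table. The hepatocyte markers (Alb, Apoa1, Ttr, Tf, Serpina1, Fgb, Cps1 and Hnf4a) were all listed with counts in the liver libraries. The scaling factors lay between 0.735 and 1.91 over all rats and between 1.06 and 1.91 at 1000 mkd in Experiment A. Depth set how firmly each member could be described. Tubb4b and Tubb5 had medians of 1826 and 1757 counts per rat, Tuba4a 1453, Tuba1b 528, Tubg1 457, Tubb2a 232, Tubb6 161 and Tuba1a 112. Tubb2b had a median of 10 counts, and Tuba1c had 4 and was at 0 in 5 rats, so that a change of either would be hard to detect. Tuba1c did not pass the filter in males of Experiment B on day 8 or day 29, which left 9 members tested there. Levels are compared between rats only, since no transcript lengths were used.

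Tubulin genes of a class are very similar in sequence, and short reads can be shared between them. RefSeq names 28 pseudogenes after 5 of the members, 14 of them after Tuba1b, and 0 of these are listed in the count tables. The span of Tuba1c overlaps Tuba1a and Tuba1b on chromosome 7. RefSeq also gives Tubb2b as a synonym of Tubb2a, so the split between these 2 rows is uncertain. Counts of each related group were therefore also added up, as given beside the results that this changed.

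Up to 6 tubulin genes were called higher at the highest dose of a table, and no member was called lower at any dose. To be called, a gene had to change at least 1.5-fold with an adjusted p (Benjamini-Hochberg over all genes tested, edgeR quasi-likelihood test) no higher than 0.05. Of all genes, 7.45% were called lower at the highest dose in Experiment A. The share was 0.0354% and 1.76% in males on day 8 and day 29, and 0.183% and 3.54% in females on day 8 and day 29. With 9 or 10 members tested, a count of 0 called lower is near these shares. In Experiment A at 1000 mkd, 6 of 10 members were called higher (Tuba1a, Tuba1b, Tubb2b, Tubb4b, Tubb5 and Tubb6), where 14% of all genes tested were. Of the females on day 29, those at 1500 mkd had 6 of 10 members called higher (Tuba1a, Tuba1b, Tubb2a, Tubb4b, Tubb5 and Tubb6), against 9.55% of all genes. In males on day 29 at 1500 mkd, 5 of 9 were called higher (Tuba1a, Tuba1b, Tubb4b, Tubb5 and Tubb6), against 3.16%, but this count was 0 without 1 rat, Rv2655. Among females on day 8, Tuba1b was called at 1500 mkd, against 0.522% of all genes, and Tuba1b and Tubb5 at 1000 mkd, against 1.03%. In males of Experiment B on day 8, 0 of 9 were called at 1500 mkd by edgeR, against 0.142% of all genes. There, 5 members had an unadjusted p under 0.05, against 12.6% of all genes, and DESeq2 called 1, Tubb6, against 1.13%.

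**Figure D1:**
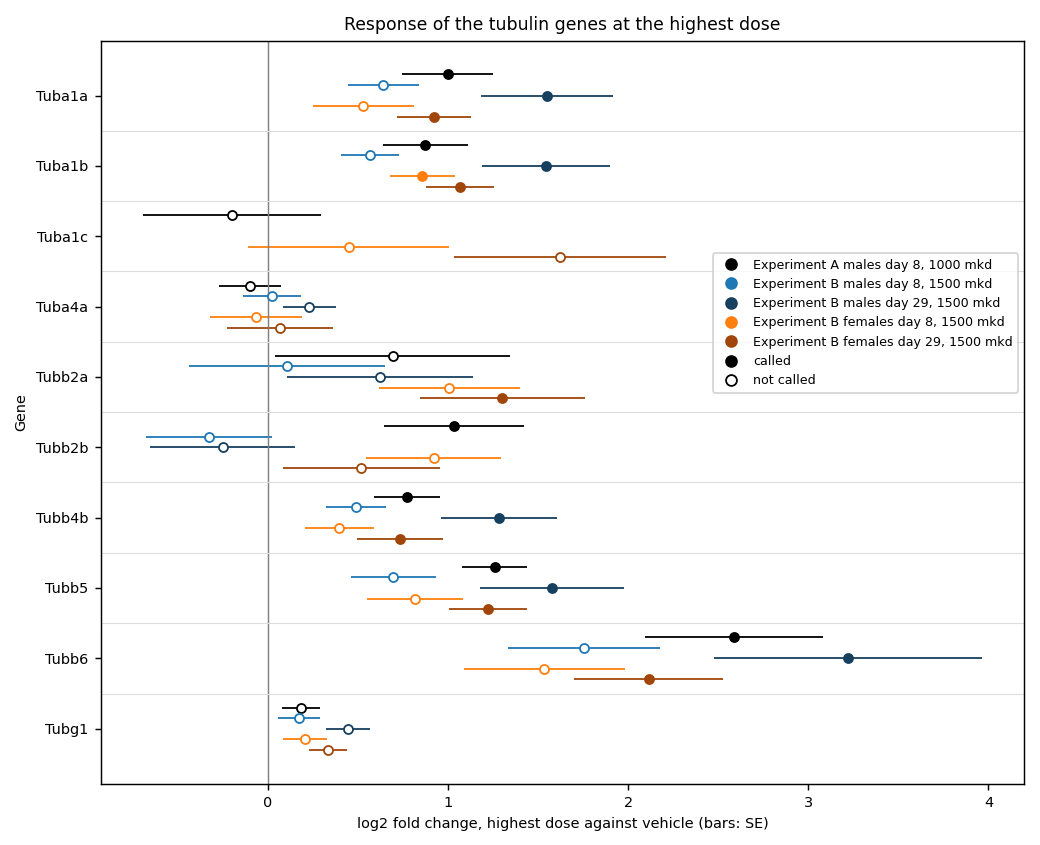
The log2 fold change at the highest dose of a table against its vehicle control (horizontal axis) is plotted for each tubulin gene (vertical axis) with its standard error (bars), 1 colour per table, with 5 rats per group, and filled circles mark genes called differentially expressed. Tubb6 has the highest value in each table, up to 3.22 in males on day 29 (0.70 without rat Rv2655), and Tuba4a lies between -0.10 and 0.23.

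At the highest dose, the median log2 fold change of the members was 0.82 in Experiment A, where that of all genes was 0.00. In Experiment B it was 0.49 in males on day 8 and 1.28 in males on day 29 (0.40 without rat Rv2655). It was 0.67 in females on day 8 and 1.00 in females on day 29, while the median of all genes lay between 0.00 and 0.07. Members in which every rat at the highest dose lay above every vehicle rat numbered 5 in Experiment A, where 9.01% of all genes did so. They numbered 3 in males on day 8 (against 1.45%), 1 in males on day 29 (against 2.86%), 3 in females on day 8 (against 1.65%) and 3 in females on day 29 (against 3.51%).

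Tubb6, one of the beta-tubulin genes, had the highest fold change of the members in every table. In Experiment A its vehicle rats had 1.79, 2.83, 1.55, 8.49 and 5.25 CPM, and the rats at 1000 mkd had 14.0, 43.9, 13.7, 36.0 and 12.9 CPM. The groups did not overlap, and the fold change was 6.01 (log2 2.59 ± 0.49 SE, adjusted p = 0.000685 by edgeR). At 30, 100 and 300 mkd its means were 2.31 ± 0.834, 2.36 ± 0.295 and 4.33 ± 3.46 CPM (SD, n = 5), beside 3.98 ± 2.91 CPM in the vehicle group, and none of these doses was called. In Experiment A the gene was thus called at 1000 mkd alone of the 4 doses.

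Females on day 29 had Tubb6 levels of 2.29, 11.5, 6.12, 4.44 and 2.72 CPM in the vehicle group and 20.1, 33.4, 27.4, 22.5 and 14.3 CPM at 1500 mkd, again without overlap. The fold change was 4.33 (log2 2.11 ± 0.41 SE, adjusted p = 0.00102). Its means at 300, 500, 750 and 1000 mkd were 4.19, 6.85, 8.05 and 9.57 CPM, and none of these was called. On day 8 the female vehicle rats had 2.13, 6.68, 6.93, 4.82 and 3.57 CPM, and those at 1500 mkd had 7.61, 17.7, 16.5, 19.5 and 8.66 CPM. All 5 treated rats lay above the vehicle rats, with a log2 fold change of 1.54 ± 0.45 that was not called (adjusted p = 0.0831, and 0.0193 by DESeq2). Male vehicle rats on day 8 had 2.64, 2.54, 2.54, 2.71 and 6.42 CPM and those at 1500 mkd 8.64, 8.08, 15.4, 11.9 and 12.6 CPM. Here too the groups did not overlap, and the log2 fold change was 1.75 ± 0.42, not called (adjusted p = 0.0681 by edgeR). Tubb6 was called in 1 of the 10 fits that left out 1 rat, the fit without the vehicle rat at 6.42 CPM (adjusted p = 0.0184).

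**Figure D2:**
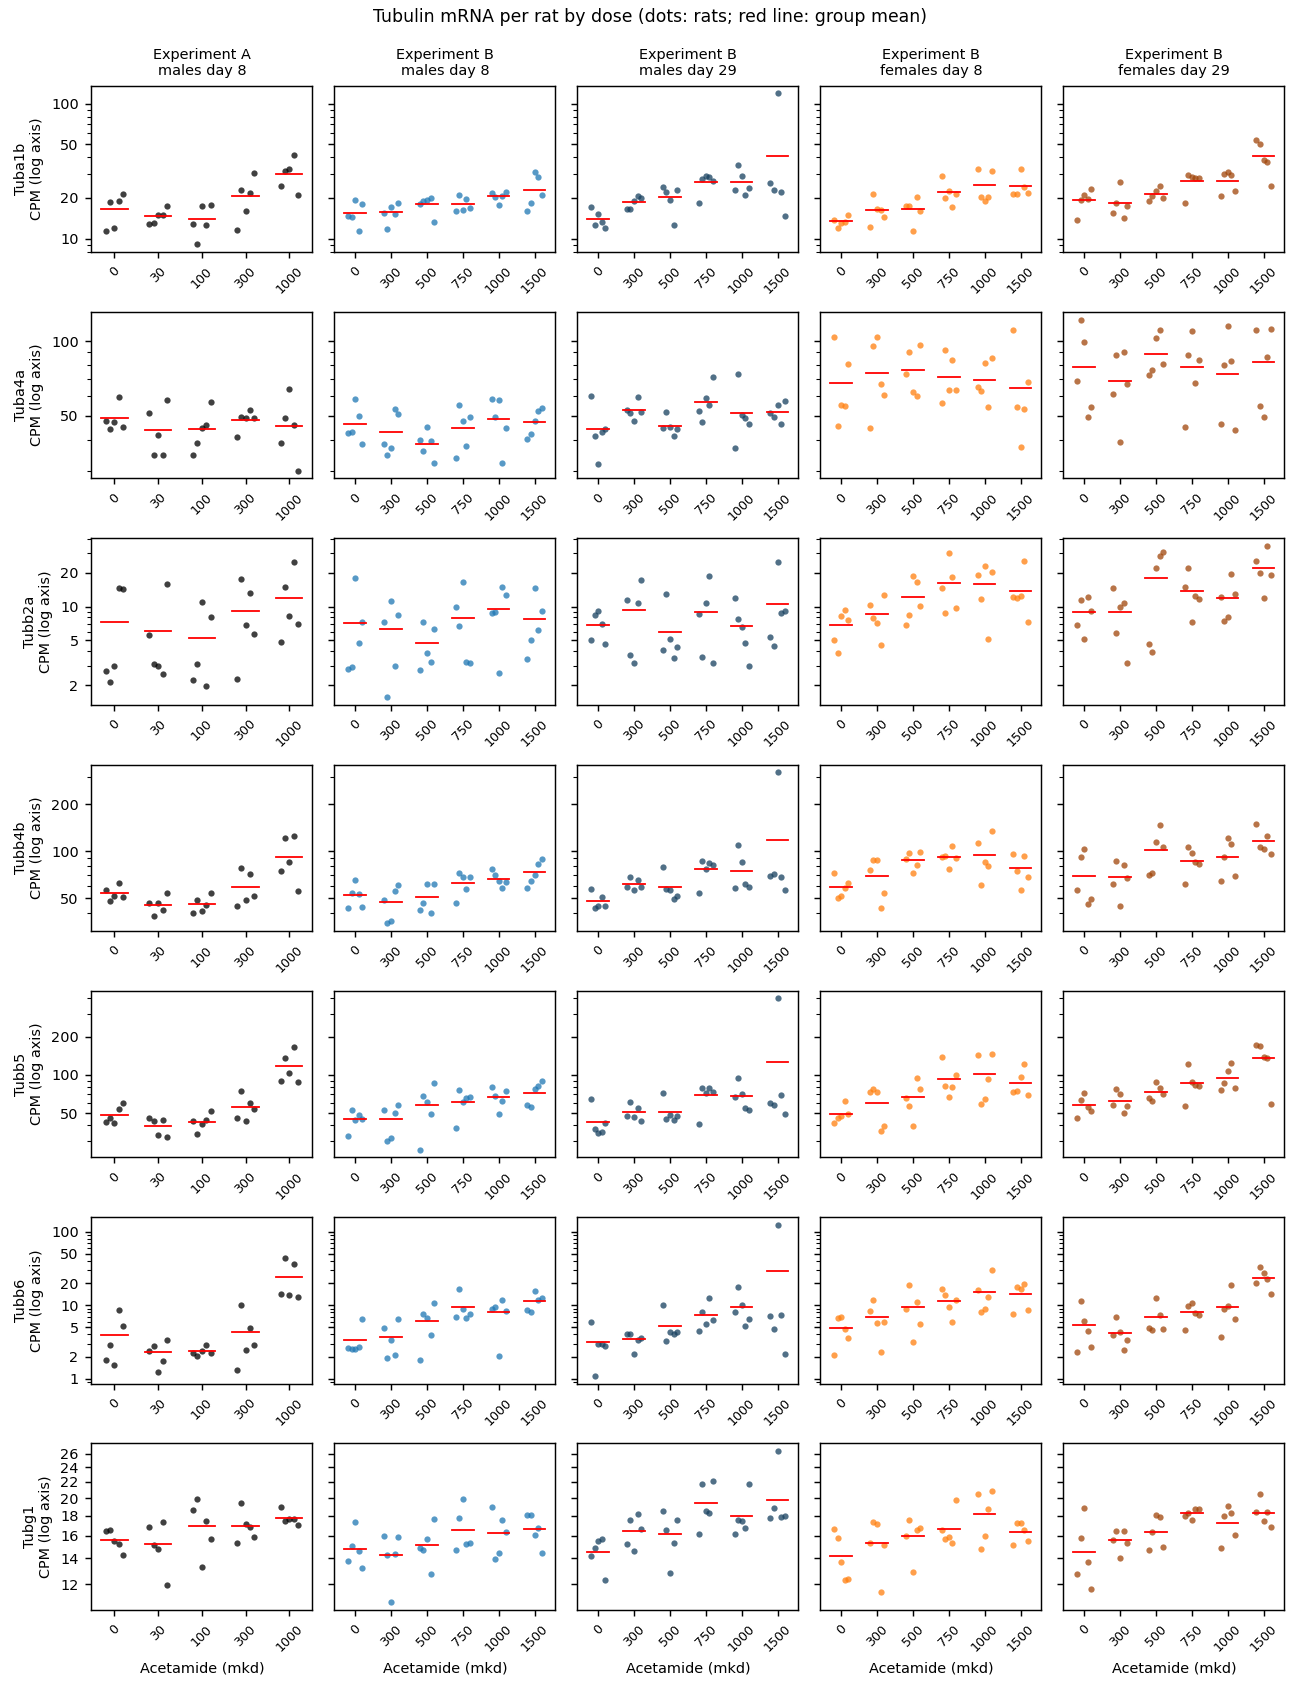
CPM of 7 tubulin genes (rows, log axis) in every rat (dots, 5 per group) are plotted against the acetamide dose in mkd in the 5 tables (columns), and the red line is the group mean. The group means of Tubb6 and Tubb5 are higher at the highest dose than in the vehicle group in all 5 tables, those of Tuba4a show no such shift, and the single high dot at 1500 mkd in males on day 29 is rat Rv2655, with 124.8 CPM of Tubb6.

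Tubb5, a beta-tubulin found in most tissues, was called at the highest dose in Experiment A and in males and females on day 29, and in females on day 8 at 1000 mkd. In Experiment A it was 42.3, 45.4, 41.9, 53.7 and 60.2 CPM in the vehicle rats and 89.4, 135, 104, 166 and 88.5 CPM at 1000 mkd, so the groups were apart. The fold change was 2.39 (log2 1.26 ± 0.18, adjusted p = 0.000109 by edgeR). For females on day 29 the vehicle rats had 45.6, 63.6, 71.9, 55.6 and 52.0 CPM and those at 1500 mkd 172, 170, 138, 135 and 58.9 CPM. Of these treated rats, 4 lay above every vehicle rat and 1 within their range, and the log2 fold change was 1.22 ± 0.22 (adjusted p = 0.000428). Tubb5 in females on day 8 was called at 1000 mkd, where its log2 fold change was 1.04 ± 0.27 (adjusted p = 0.0421), and not at 1500 mkd, where it was 0.82 ± 0.27 (adjusted p = 0.114). The call at 1000 mkd was lost in 8 of the 10 fits that left out 1 vehicle or treated rat, with adjusted p from 0.0517 to 0.202. Its log2 fold change in males on day 8 at 1500 mkd was 0.70 ± 0.23 (adjusted p = 0.178), with 5 of 5 treated rats above the vehicle rats.

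Tubb4b, a beta-tubulin with a broad tissue distribution, rose in Experiment A from 54.0 ± 5.66 CPM to 92.3 ± 30.2 CPM (SD, n = 5) at 1000 mkd. Its vehicle rats had 56.4, 48.4, 51.8, 62.8 and 50.9 CPM and those at 1000 mkd 74.5, 122, 85.5, 125 and 55.3 CPM, with 1 treated rat inside the vehicle range. The log2 fold change was 0.77 ± 0.19 (adjusted p = 0.00364 by edgeR). At 1500 mkd in females on day 29 it was 0.73 ± 0.24 (adjusted p = 0.0304), a call that was lost in 5 of the 10 fits that left out 1 rat, with adjusted p up to 0.0986. At 1500 mkd on day 8 it was 0.49 ± 0.17 in males and 0.40 ± 0.19 in females, neither of them called.

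The alpha-tubulin genes Tuba1a and Tuba1b moved together with these beta-tubulins. Tuba1b in Experiment A was 11.3, 18.8, 12.1, 18.9 and 21.5 CPM in the vehicle rats and 24.5, 31.8, 33.0, 41.2 and 20.9 CPM at 1000 mkd, with 4 treated rats above all vehicle rats. Its log2 fold change was 0.87 ± 0.24 (adjusted p = 0.00778 by edgeR). The female vehicle rats of day 29 had 13.7, 19.2, 20.9, 19.8 and 23.4 CPM and those at 1500 mkd 53.4, 50.4, 38.2, 36.7 and 24.6 CPM, without overlap. The log2 fold change there was 1.07 ± 0.19 (adjusted p = 0.000384).

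Tuba1b in females on day 8 ranged from 11.9 to 15.1 CPM in the vehicle rats. It was 32.7, 20.2, 19.0, 20.5 and 31.7 CPM at 1000 mkd and 21.6, 21.5, 32.7, 23.9 and 21.9 CPM at 1500 mkd, so that all 10 of these rats lay above the vehicle range. The log2 fold changes were 0.89 ± 0.18 (adjusted p = 0.0177) and 0.86 ± 0.18 (adjusted p = 0.0354). The call at 1500 mkd was lost in 8 of 10 fits that left out 1 rat (adjusted p up to 0.143), and that at 1000 mkd in 4 of 10 (up to 0.101).

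Tuba1a was 3.05, 3.63, 3.14, 4.34 and 5.48 CPM in the vehicle rats of Experiment A and 5.90, 9.05, 7.66, 11.2 and 5.50 CPM at 1000 mkd, with a log2 fold change of 1.00 ± 0.25 (adjusted p = 0.0053 by edgeR). It rose in females on day 29 from 3.65 to 6.91 CPM on average, a log2 fold change of 0.92 ± 0.21 (adjusted p = 0.00286), with 5 of 5 rats above the vehicle rats in both tables. In Experiment A the lowest treated rat and the highest vehicle rat were nearly equal. In males on day 8 its log2 fold change at 1500 mkd was 0.64 ± 0.20 (adjusted p = 0.138), and in females on day 8 it was 0.53 ± 0.28 (adjusted p = 0.394). Tuba1c was too low to be read alone, and its highest count was 42, in rat Rv2655. The 5 females at 1500 mkd on day 29 had 9, 11, 25, 18 and 1 counts, beside 2 to 4 in the vehicle rats, with a log2 fold change of 1.62 ± 0.59 that was not called (adjusted p = 0.0513). With the counts of Tuba1a, Tuba1b and Tuba1c added up, the log2 fold change was 0.89 in Experiment A (adjusted p = 0.00697) and 1.05 in females on day 29 (adjusted p = 0.000381).

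Tuba4a, another alpha-tubulin, was not called at any dose of any table. At the highest dose its log2 fold change was -0.10 ± 0.17 in Experiment A, 0.02 ± 0.16 and 0.23 ± 0.15 in males on day 8 and day 29, and -0.07 ± 0.25 and 0.07 ± 0.29 in females on day 8 and day 29, with adjusted p from 0.307 to 0.969 by edgeR. Its spread between rats was wide in females, from 49.3 to 122 CPM in the vehicle group on day 29. Over all rats and doses it lay between 30.0 and 122 CPM.

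Tubb2a, a beta-tubulin abundant in neurons, varied widely between vehicle rats, with coefficients of variation from 28.3% in males on day 29 to 88.8% in Experiment A. In males on day 8 its vehicle rats had 2.79, 2.91, 17.9, 4.72 and 7.26 CPM, a range wider than that at 1500 mkd (3.45, 5.07, 14.6, 6.20 and 9.06 CPM). On day 29 in females it was 6.92, 11.4, 5.11, 12.0 and 9.04 CPM in the vehicle rats and 25.1, 19.6, 12.0, 34.5 and 18.9 CPM at 1500 mkd. There 4 treated rats lay above all vehicle rats, and the log2 fold change was 1.30 ± 0.46 (adjusted p = 0.0448 by edgeR), a call lost in 7 of 10 fits that left out 1 rat (adjusted p up to 0.107). The female day 8 values were 1.01 ± 0.39 at 1500 mkd and 1.21 ± 0.39 at 1000 mkd, not called (adjusted p = 0.2 and 0.127).

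Tubb2b was near the limit of detection. In Experiment A it was 0.421, 0.617, 0.340, 0.301 and 0.623 CPM in the vehicle rats and 0.737, 1.28, 0.7096, 1.07 and 0.905 CPM at 1000 mkd, without overlap, and its log2 fold change was 1.03 ± 0.39 (adjusted p = 0.0467 by edgeR). This call was lost in 7 of 10 fits that left out 1 rat (adjusted p from 0.0511 to 0.128), and with the counts of Tubb2a added the log2 fold change was 0.72 (adjusted p = 0.385). In males of Experiment B its log2 fold changes at 1500 mkd were -0.33 ± 0.35 on day 8 and -0.25 ± 0.40 on day 29, neither of them called.

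Tubg1, the nucleating gamma-tubulin, moved within a narrow range. In males on day 29 its vehicle rats had 14.2, 14.9, 15.5, 15.7 and 12.3 CPM and those at 1500 mkd 17.7, 18.9, 26.4, 17.8 and 17.9 CPM, so the groups did not overlap. The log2 fold change was 0.45 ± 0.12 (adjusted p = 0.0276 by edgeR), past the p threshold but under the fold threshold. Without rat Rv2655, the one at 26.4 CPM, the log2 fold change was 0.25 and no longer past the p threshold (adjusted p = 0.134 by edgeR). For females on day 29 it was 0.33 ± 0.11 (adjusted p = 0.0258), also under the fold threshold, with 1 treated rat above all vehicle rats. In Experiment A the 1000 mkd rats had 17.0 to 18.9 CPM and the vehicle rats 14.2 to 16.6 CPM, apart but with a log2 fold change of 0.18 ± 0.11 (adjusted p = 0.198).

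In males on day 29 at 1500 mkd, rat Rv2655 stood apart from its group in 8 of 10 members (all but Tuba4a and Tubb2b). Its Tubb6 was 124.8 CPM, while the other 4 rats had 7.21, 4.69, 7.29 and 2.19 CPM, and its Tubb5 was 399.9 CPM beside 60.5, 57.6, 68.9 and 49.2 CPM. Its Mki67, a marker of cycling cells, was 243.4 CPM, where the others had 14.1, 10.1, 12.9 and 3.07 CPM. The rat was high in tubulin genes and in this marker alike.

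The male day 29 results were given with and without this rat, a choice made after seeing the data. With all rats the log2 fold changes at 1500 mkd were 1.55 ± 0.37 for Tuba1a, 1.54 ± 0.36 for Tuba1b, 1.28 ± 0.32 for Tubb4b, 1.58 ± 0.40 for Tubb5 and 3.22 ± 0.75 for Tubb6. Without it they were 0.59, 0.54, 0.40, 0.41 and 0.70, and 0 of 9 members were called, against 1.12% of all genes (adjusted p from 0.0552 for Tuba1b to 0.275 for Tubb6 by edgeR).

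At the lower doses the same omission had the opposite effect on the calls. With all rats, 0 of 9 members were called at 750 mkd (against 0.248% of all genes) or at 1000 mkd (against 0.949%), although 4 members at each dose had an unadjusted p under 0.05, against 22.9% and 26.2% of all genes. Without the rat, which belonged to neither of these groups but to the same fit, 4 were called at 750 mkd (Tuba1a, Tuba1b, Tubb4b and Tubb5, against 1.23%). At 1000 mkd 5 were called (these and Tubb6, against 2.61%). Tubb6 at 1000 mkd was 8.18, 17.5, 10.2, 5.18 and 6.58 CPM, beside 5.84, 1.09, 3.00, 2.96 and 2.78 CPM in the vehicle rats, and its log2 fold change was 1.56 ± 0.40 (adjusted p = 0.0166). Tuba1b ranged from 20.8 to 35.2 CPM at 1000 mkd and from 11.9 to 17.1 CPM in the vehicle rats, with a log2 fold change of 0.86 ± 0.17 (adjusted p = 0.01).

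At the other doses few members were called. None was called at 30, 100 or 300 mkd in Experiment A or at 300 to 1000 mkd in males on day 8. The same held at 300 or 500 mkd in males on day 29 and at 300 to 1000 mkd in females on day 29. By edgeR, 5 of 9 members had an unadjusted p under 0.05 in males on day 8 at 1000 mkd, against 4.7% of all genes. There 2 did at 500 mkd (3.32%) and 2 at 750 mkd (7.65%). In females on day 29 it was 2 at 500 mkd (11.4%), 4 at 750 mkd (15.6%) and 4 at 1000 mkd (19.4%). All of these were higher, and 1 in Experiment A at 100 mkd (2.05%) was lower. The other doses named had 0 members (1.41% to 13.7% of all genes). Among all genes, 0% were called higher at 30, 100 and 300 mkd in Experiment A, at 300, 500, 750 and 1000 mkd in males on day 8, at 300 and 500 mkd in males on day 29 and at 300 mkd in females on day 29. For females on day 29 the share of all genes was 0.0349% at 500 mkd, 0.166% at 750 mkd and 1.23% at 1000 mkd. Female rats on day 8 had no member called at 300, 500 or 750 mkd, where 0.0087% of all genes were called at each dose. There, 6 members at 750 mkd had an unadjusted p under 0.05, against 14% of all genes, and DESeq2 called 3 (Tuba1b, Tubb2a and Tubb5), against 1.31%.

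All doses of a table were also taken in 1 slope, in log2 units per 1000 mkd, which had no fold threshold. An upward trend at an adjusted p of at most 0.05 was called for 6 of 10 members in Experiment A (against 23.5% of all genes), 5 of 9 in males on day 8 (against 1.98%) and 6 of 9 in males on day 29 (against 13.9%). It was called for 3 of 10 in females on day 8 (against 3.76%) and 8 of 10 in females on day 29 (against 15.4%). Without rat Rv2655, 5 of 9 passed in males on day 29, against 10% of all genes, and Tubg1 was the one lost (adjusted p = 0.0591). Tubb6, Tubb5 and Tuba1b passed in all 5 tables. The slope of Tubb6 was 3.10 ± 0.37 in Experiment A, 1.23 ± 0.26 and 2.20 ± 0.36 in males on day 8 and day 29, and 1.10 ± 0.27 and 1.499 ± 0.23 in females on day 8 and day 29, with adjusted p from 5.38e-07 to 0.0187 by edgeR. Without rat Rv2655 its slope in males on day 29 was 0.89 (adjusted p = 0.0326). Tuba4a had slopes from -0.08 to 0.13 and passed in none.

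In males on day 8, where no member was called at a single dose, the trend was called for Tuba1a (slope 0.42 ± 0.12), Tuba1b (0.40 ± 0.09), Tubb4b (0.42 ± 0.10), Tubb5 (0.52 ± 0.14) and Tubb6. The calls of Tuba1a and Tubb5 were close to the threshold (adjusted p = 0.0418 and 0.0318 by edgeR). Leaving out 1 rat took away that of Tuba1a in 14 of 30 fits, that of Tubb5 in 5 and that of Tuba1b in 1. Without the 1500 mkd rat at 31.0 CPM of Tuba1b, the trend was called for 2 members. Without the highest dose, the trend was called for 0 members in Experiment A (against 0.00903% of all genes) and in males on day 8 (against 0.0089%), for 5 in females on day 8 (against 2.8%) and for 3 in females on day 29 (against 5.23%). The trend in females on day 8 did not continue past 1000 mkd in the group means. Those of Tubb5 were 49.3, 101 and 87.0 CPM, and those of Tubb6 were 4.82, 15.2 and 14.0 CPM, at 0, 1000 and 1500 mkd.

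Whether the response differed between sexes, durations or experiments was tested as an interaction, and no member passed at an adjusted p of at most 0.05 by edgeR. Among all genes, the share that passed was 0% for female against male at 1500 mkd on day 8, 0.466% for the same on day 29, 0% for day 29 against day 8 in males and 0.0169% for the same in females. It was 7.48% for Experiment A against B at 1000 mkd in males on day 8. The log2 response of Tubb6 at 1000 mkd was 1.30 ± 0.65 higher in Experiment A than in Experiment B (adjusted p = 0.199), and that of Tubb5 was 0.66 ± 0.30 higher (adjusted p = 0.158). The male response of Tuba1b was 0.95 ± 0.34 log2 units higher on day 29 than on day 8 (adjusted p = 0.994), a difference of -0.01 without rat Rv2655. These intervals are wide, and a miss of the threshold does not show that the responses were alike. Strain supplier and experiment cannot be told apart.

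In the vehicle rats, the level of Tuba4a was 78.7 ± 31.1 CPM in females and 44.3 ± 10.2 CPM in males on day 29 (SD, n = 5). The log2 difference, female minus male, was 0.71 ± 0.23 (adjusted p = 0.0197 by edgeR), with 0.0755 when only these groups were fitted. Of all genes, 12.1% were called between the sexes on day 29 and 8% on day 8, where no member was and Tuba4a differed by 0.38 ± 0.23 (adjusted p = 0.34). Each sex was held in its own table, so sex and table cannot be told apart.

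Over all rats, with log2 CPM centred on the mean of the table, Tuba1a, Tuba1b, Tubb4b, Tubb5 and Tubb6 varied together, with Pearson's r between 0.71 and 0.87 for each pair. Tuba4a had r of 0.54 with Tubb4b and at most 0.20 with any other member, and Tubb2b had at most 0.27. These are descriptions over rats that share dose, table and library scaling, and Tuba1c was left out because it was not tested in every table.

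**Figure D3:**
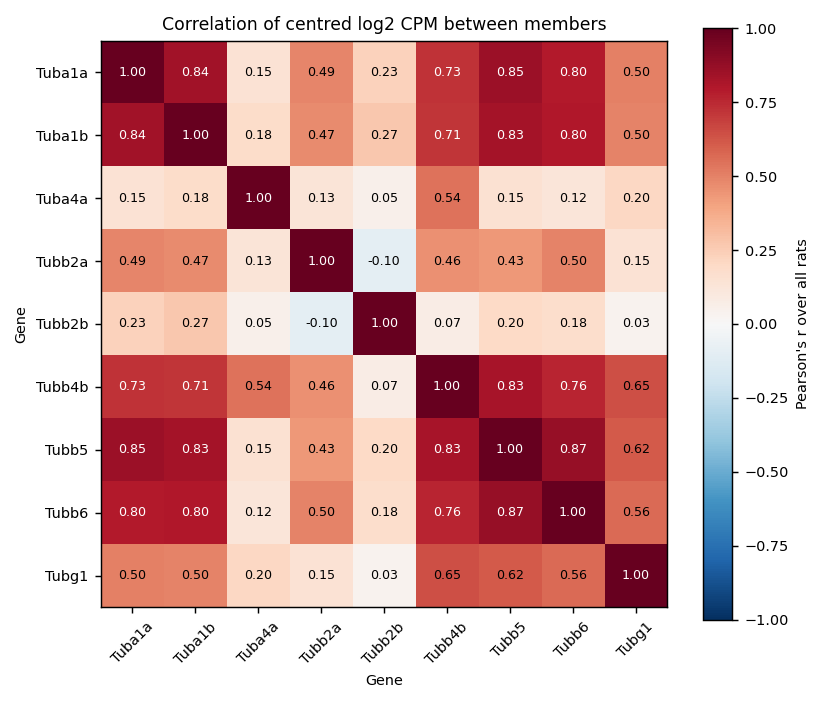
Pearson's r between each pair of 9 tubulin genes over all rats is shown in colour and as a number, from log2 CPM centred on the mean of each table. Tuba1a, Tuba1b, Tubb4b, Tubb5 and Tubb6 form a block with r from 0.71 to 0.87, while Tuba4a and Tubb2b lie outside it.

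The genes with the most similar pattern were sought among 11066 genes tested in all 5 tables. For Tubb6 they were Kif22 (r = 0.89), a chromosome-arm kinesin, and Iqgap3 (r = 0.89). For Tubb5 they were Incenp (r = 0.90), a subunit of the chromosomal passenger complex, and Tpx2 (r = 0.90), a spindle assembly factor. For Tubb4b they were Tubb5 (r = 0.83) and the mitotic kinesin Kif20a (r = 0.78), and for Tuba1a and Tuba1b they were each other (r = 0.84) and Tubb5 (r = 0.85 and 0.83). Tubg1 was most like Hdgfrp2 (r = 0.72) and Aarsd1 (r = 0.70), Tubb2b like Crip1 (r = 0.60) and Lsp1 (r = 0.59), and Tuba4a like Cs, the citrate synthase gene, (r = 0.56) and Ccdc51 (r = 0.54).

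With Mki67 itself, r was 0.88 for Tubb5, 0.86 for Tubb6, 0.80 for Tuba1b, 0.79 for Tuba1a, 0.69 for Tubb4b and 0.50 for Tubg1, and without rat Rv2655 it was 0.86, 0.84, 0.76, 0.75, 0.64 and 0.45. It was 0.46 for Tubb2a (0.27 to 0.58 within single tables, and 0.44 without rat Rv2655), -0.01 for Tuba4a and 0.13 for Tubb2b. Within single tables r of Tubb6 with Mki67 ran from 0.75 to 0.95.

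Tubb2a was most like Arntl (r = 0.86) and Npas2 (r = 0.82), which encode partner transcription factors of the circadian clock, and the r with Arntl lay between 0.82 and 0.92 within each of the 5 tables. Arntl itself was not called at the highest dose of any table. Its vehicle rats spanned 0.871 to 39.0 CPM in Experiment A and those at 1000 mkd 4.51 to 35.9 CPM. The time of day at which each rat was sampled was not used here, and its part in the values of Tubb2a was not tested. The Tubb2a stretch printed above held no CACGTG. This motif was found in 5.59% of all promoters, so its absence is usual and was not read as bearing on the clock.

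**Figure D4:**
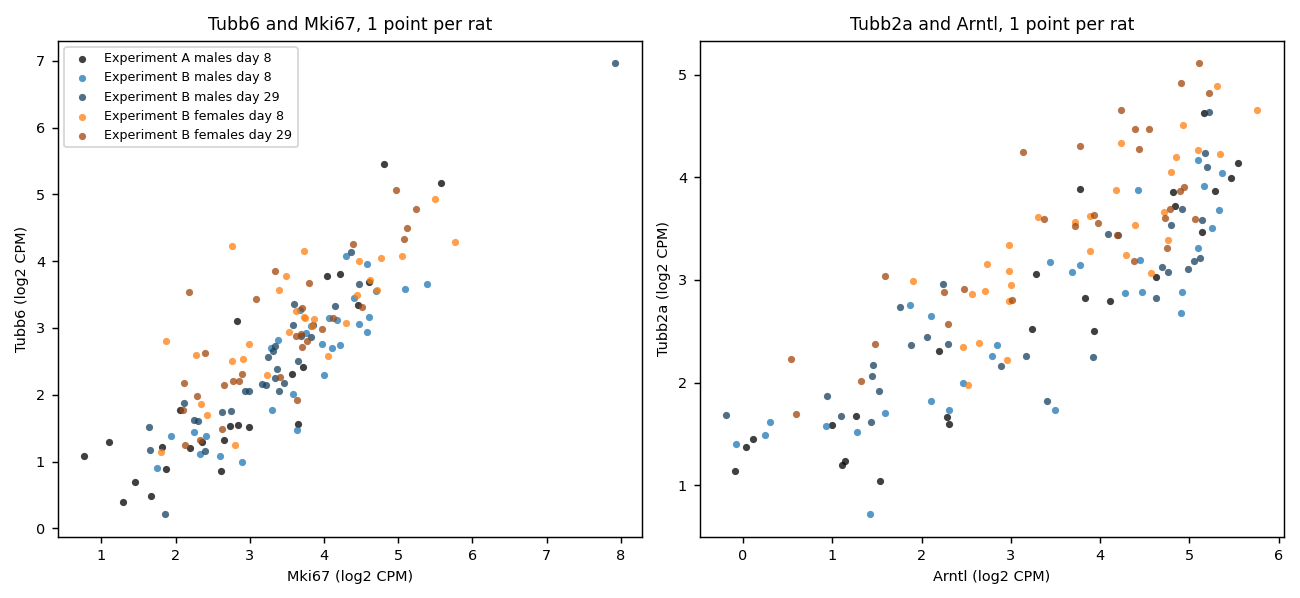
Log2 CPM of Tubb6 against Mki67 (left) and of Tubb2a against Arntl (right) are plotted with 1 point per rat, coloured by table. Tubb6 follows Mki67, with rat Rv2655 at the upper right, and Tubb2a follows Arntl in every table, with r from 0.82 to 0.92.

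Among the other genes of the microtubule system, the regulators of dynamics (proteins that grow, shrink, sever or bundle microtubules) had calls in 4 of the 5 tables. At the highest dose, 9 of 25 tested were called higher in Experiment A, 3 of 25 in males on day 8, 5 of 25 in males on day 29, 0 of 26 in females on day 8 and 8 of 26 in females on day 29, where the shares of all genes were 14%, 0.142%, 3.16%, 0.522% and 9.55%. In males on day 29 the count was 2 without rat Rv2655, against 1.12% of all genes. None of these regulators was called lower, where 7.45%, 0.0354%, 1.76%, 0.183% and 3.54% of all genes were. The list median was 0.38, 0.16, 0.34, 0.24 and 0.35 log2 units in this order. Tpx2 rose by 2.01 ± 0.34 log2 units in Experiment A, by 1.54 ± 0.31 in males on day 8 and by 2.12 ± 0.32 in females on day 29. Tacc3, a spindle protein, rose by 1.06 ± 0.20 in males on day 8, and Kif2c, a microtubule-depolymerizing kinesin, by 1.84 ± 0.53 in Experiment A and 2.84 ± 0.44 in females on day 29. Fignl1, of the family of microtubule-severing and repair ATPases, rose by 2.04 ± 0.37 in Experiment A and 2.47 ± 0.46 in females on day 29 (all called by edgeR).

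Of the gamma-tubulin ring complex and augmin list, 2, 0, 2, 1 and 2 of 11 genes tested were called higher in the same order of tables. The shares of all genes, for this list and the next, were 14%, 0.142%, 3.16%, 0.522% and 9.55%. In males on day 29 without rat Rv2655 the count was 1, against 1.12% of all genes. The 2 of 11 in Experiment A are near the 14% of all genes called there. Haus4, an augmin subunit, was called with every treated rat above the vehicle rats in 3 tables, with log2 fold changes of 1.15 ± 0.23 in Experiment A, 1.34 ± 0.28 in females on day 8 and 1.45 ± 0.23 in females on day 29. Of 12 tubulin modifying enzymes, 1, 0, 2, 1 and 1 were called higher, among them Ttll12 in Experiment A (0.59 ± 0.21) and Ttll3 in males on day 29 (0.75 ± 0.20). The 1 of 12 in Experiment A and in females on day 29 was under the 14% and 9.55% of all genes. Without rat Rv2655, 1 was called higher and 1 lower in males on day 29, against 1.12% and 4.95% of all genes.

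No gene that folds tubulin or senses its level was called, a count to be read beside the shares of all genes given below. Of 6 tubulin folding cofactors, 12 subunits of the CCT chaperonin and prefoldin and 2 genes of tubulin mRNA autoregulation, 0 were called in either direction at the highest dose of any table by edgeR. Their list medians lay between -0.33 and 0.17 log2 units. Of the other tubulins, 3 to 5 of 9 listed passed the filter and 0 were called. Of all genes, 14% were called higher and 7.45% lower in Experiment A, and 9.55% and 3.54% in females on day 29. These shares were 3.16% and 1.76% in males on day 29, 0.142% and 0.0354% in males on day 8, and 0.522% and 0.183% in females on day 8. In both day 8 tables of Experiment B and in males on day 29 the counts of 0 are near the shares of all genes. With so few genes tested, those of the 2 autoregulation genes and of the other tubulins are near the shares in every table. The cofactor Tbcb was at 0 in every rat, which was not read as absence of expression because the gene is widely used.

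Marker lists of other processes and cell types had calls in the same tables, to be read against the shares of all genes called higher, which were 14% in Experiment A, 3.16% in males on day 29 (1.12% without rat Rv2655), 0.522% in females on day 8 and 9.55% in females on day 29. Of 12 proliferation genes, 11 were called higher in Experiment A, 0 in males on day 8, 9 in males on day 29 (3 without rat Rv2655), 2 in females on day 8 and 12 in females on day 29. Their summed level was 36.7 to 101 CPM in the vehicle rats of Experiment A and 120 to 252 CPM at 1000 mkd, and 37.9 to 51.8 CPM and 64.9 to 192 CPM in females on day 29. Of 8 macrophage markers, 5 were called higher in Experiment A (summed level 445 to 1308 CPM in vehicle and 1079 to 1934 CPM at 1000 mkd) and 3 of them in females on day 29 (799 to 1038 CPM and 979 to 1793 CPM), and 0 in the other tables. Endothelial markers were called higher in these tables as well (3 and 2 of 6), as were T and NK cell markers (4 and 1 of 5).

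Hepatocyte markers were called lower, 3 of 8 in Experiment A, against 7.45% of all genes, and 2 of 8 in females on day 29, against 3.54%. In these females 1 of 8 was called higher, near the 9.55% of all genes. Alb, which encodes albumin, was below all vehicle rats in 5 of 5 treated rats of Experiment A (log2 fold change -0.91 ± 0.27). Erythroid markers were called lower in both tables (2 and 3 of 3, against 7.45% and 3.54%), as were 2 of 3 neutrophil markers in Experiment A. In females on day 29, 1 of 3 neutrophil markers was called higher, against 9.55% of all genes. Of 7 stellate cell and fibroblast markers, 1 was called higher in Experiment A, near the 14% of all genes. In females on day 29 it was 2 of 7, against 9.55%. Of 5 cholangiocyte markers, 1 was called higher in males on day 29 (against 3.16%, and 0 without rat Rv2655). In females on day 29 it was also 1 of 5, against 9.55%. Of 2 or 3 B cell markers tested, 0 were called in any table. In lists this short, counts of 0 or 1 are near the shares. In both day 8 tables of Experiment B, 0 markers of any of these cell types were called, near the shares of all genes there (0.142% and 0.522% higher). The part of cell composition in the tubulin levels was not tested.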

How the data were processed

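Total RNA of the left liver lobe was sequenced as stranded mRNA libraries, 1 per rat. The authors trimmed the reads with Trimmomatic, aligned them to build Rn6 with Bowtie2 and counted them on gene models with HTSeq, and deposited raw read counts per gene and rat in 5 tables, 1 for Experiment A and 1 for each sex and day of Experiment B. The strand setting of the counting is not given in the sources used here. Rows that name no gene held 35.5% to 67.1% of the counts of a rat in Experiment B (none were listed in Experiment A). They entered neither the library sizes nor any test. Groups were taken from the sample labels, in 1 field of which the male vehicle rats of day 29 carry the name of the other experiment. Each replicate was a separate rat, and 0 pairs of columns were identical.

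Counts were scaled by TMM and tested on all genes with edgeR 4.0.16 (glmQLFit and glmQLFTest, filterByExpr by group, R 4.3.3), with all groups of a table in 1 fit. Adjusted p is Benjamini-Hochberg within a comparison, and SE is the log2 fold change divided by the root of F. CPM used the scaled library sizes. The trend was fitted on the dose, interactions on the groups of Experiment B or the male day 8 rats of both experiments. Correlations used log2 CPM with a prior count of 2. The tests were also run on simulated counts with planted changes. No rat was set apart there, so this does not cover the effect of rat Rv2655.

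The alternatives were DESeq2 1.42.0 or its size factors, other filters, criteria, dose scales and fits, a replicate block, related genes added up, and rats left out. Every member was described in every table. Of other lists, at most 3 genes a list and table were named by fold change, called and with every treated rat beyond every vehicle rat, as were the 2 genes most like each member. The members and lists were chosen with earlier results of these data known. Repeat reads were not removed by molecular identifiers, so counts are not independent molecules. RefSeq names, promoters and pseudogenes are of build GRCr8, and no coordinates of the count tables were used.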

Additional observations from a re-analysis of the deposited data

Results flagged for a closer look

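In 14 of 100 groups of 5 rats (each tubulin gene at the vehicle and highest dose of each table), 1 rat stood apart from the others by Dixon's criterion. Chance gives this in about 1 in 20 groups of independent, normally distributed values. The groups here share rats between genes and hold CPM without logs, so the 14 cannot be set against that rate. Of the 14, 8 were the same male at 1500 mkd on day 29, rat Rv2655. Its levels were 21.9 CPM of Tuba1a (the other 4 rats had 2.60 to 5.28), 119.1 CPM of Tuba1b (others 14.8 to 25.7), 1.13 CPM of Tuba1c (others 0.0516 to 0.31) and 24.9 CPM of Tubb2a (others 4.43 to 9.18). It also had 319.9 CPM of Tubb4b (others 56.6 to 71.1), 399.9 CPM of Tubb5 (others 49.2 to 68.9), 124.8 CPM of Tubb6 (others 2.19 to 7.29) and 26.4 CPM of Tubg1 (others 17.7 to 18.9).

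At 1500 mkd in females on day 8, replicate 3 had 32.7 CPM of Tuba1b beside 21.5 to 23.9 in the others, and replicate 4 had 25.1 CPM of Tubb2a beside 7.36 to 12.3. Among vehicle rats, replicate 4 of Experiment A had 59.7 CPM of Tuba4a beside 44.4 to 47.6, and replicate 3 of the females on day 8 had 0.425 CPM of Tubb2b beside 0.241 to 0.272. Replicate 1 of the male vehicle rats on day 29 had 64.1 CPM of Tubb5 beside 34.7 to 41.9, and replicate 5 of those on day 8 had 6.42 CPM of Tubb6 beside 2.54 to 2.71. The causes were not tested.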

How the results depend on the processing

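Of 3675 values of single members under alternatives, 3479 kept their direction and their side of the threshold, 154 were no longer past it, 40 were newly past it and 2 reversed. The reversed values were Tuba1c at 1000 mkd in Experiment A, 0.89 with Tuba1a and Tuba1b added, and Tubb2b at 1500 mkd in males on day 29, 1.49 with all beta members added, where the summed counts are mostly those of the other genes. The other numbers here count members called. DESeq2 gave 1 in males on day 8 at 1500 mkd, 3 in males on day 29 at 1500 mkd and 3 in their trend, where it gave no adjusted p for Tubb5 and Tubb6, nor for Tubb4b in the trend. It gave 3, 4 and 2 in females on day 8 at 750, 1000 and 1500 mkd and 1 in females on day 29 at 1000 mkd. With relaxed criteria (1.4-fold, adjusted p 0.1) the counts were 2 in males on day 8 at 1500 mkd, 1, 4 and 2 in females on day 8 at 750, 1000 and 1500 mkd and 1 in females on day 29 at 1000 mkd. With only the vehicle and tested dose fitted, they were 1 in males on day 8 at 1500 mkd, 1, 4 and 0 in males on day 29 at 750, 1000 and 1500 mkd, and 3 and 1 in females on day 8 at 750 and 1000 mkd. Without the highest dose the trend was called for 0 in Experiment A, 0 in males on day 8, 5 in females on day 8 and 3 in females on day 29. Without rat Rv2655, an alternative added after seeing the data, 4 and 5 were called in males on day 29 at 750 and 1000 mkd. Requiring 10 counts in every rat gave 1 in females on day 8 at 1000 mkd, and fitting only the groups of the contrast gave 0 for the vehicle sexes on day 29.

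Leaving out 1 rat, or 1 replicate number, gave 4 to 6 in Experiment A at 1000 mkd, 0 to 1 in males on day 8 at 1500 mkd (trend 2 to 5) and 0 to 5 in males on day 29 at 1500 mkd (trend 5 to 6). It gave 0 to 1, 0 to 4 and 0 to 2 in females on day 8 at 750, 1000 and 1500 mkd (trend 2 to 4), and 0 to 1 and 4 to 7 in females on day 29 at 1000 and 1500 mkd (trend 6 to 8). The ranges were 0 to 1 for the vehicle sexes on day 29 and 0 to 1 for Experiment A against B. The cause of these changes was not tested.

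The replicate numbers were not taken to pair the rats. Same-numbered rats correlated above 0.1 in 2 to 4 of 5 pairs of a table (r from -0.25 to 0.34), which does not settle this choice. This is a rough cut and cannot exclude a link between same-numbered rats. With the replicate block, 3 members were called in males on day 29 at 1500 mkd, 1 in females on day 8 at 1000 mkd and 0 at 1500 mkd. Depth limited Tuba1c and Tubb2b most, with medians of 4 and 10 counts per rat.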
